A study of Mus musculus with 912 samples.

Results

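The neuromodulator receptor genes are the receptors for serotonin, dopamine, acetylcholine, noradrenaline, adenosine, opioid peptides, endocannabinoids and histamine. They were chosen by symbol alone: all genes whose symbol begins with Htr, Drd or Chrm and a digit, with Chrna, Chrnb, Adra, Adora, Oprd, Oprk or Oprm, with Adrb and a digit, and Cnr1, Hrh1, Hrh2 and Hrh3. The rule took 58 of the 42772 genes with complete counts. No measured value entered it. One of the 58, Chrna1os, is a non-coding RNA and not a receptor, and Drd1 had counts but no log2 value. Levels and shares of nuclei therefore cover 57 genes and tests of counts cover up to 58.

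The study asked how a brief new experience changes transcription in hippocampal neurons. It sequenced 912 single nuclei of female C57BL6 mice aged 7.75 to 9 weeks, 1 SmartSeq2 library per nucleus. First-cohort nuclei were sorted on NEUN, a neuronal protein, PROX1, CTIP2 and FOS, and second-cohort nuclei on PROX1, CTIP2, FOS and ARC without NEUN, so every group is a sorted population. The 783 nuclei used came from 29 mice and held 142275 to 5885216 counts (median 1251690). The labels name no transgene or deletion. In the first cohort (360 nuclei) mice either stayed in the home cage (HC) or were placed for 15 min in an environment new to them (NE) and killed 1 h later, and nuclei were FOS+ or FOS−. The second cohort (552 nuclei) held dentate gyrus (DG) nuclei only, all ARC+. They were FOS− at 4 h or 5 h after the NE, or FOS+ or FOS− 1 h after a second exposure that followed the first by 4 h, either to the same environment (A>A) or to a different one (A>C). FOS+ marks a nucleus recently active, and ARC+FOS− one that had responded to the first exposure.

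Neuromodulators reach hippocampal neurons from the brainstem, the septum and local cells, and most of their receptors are G-protein-coupled. Receptors coupled to Gs raise cAMP, those coupled to Gi lower it and open potassium channels, and those coupled to Gq release calcium. The nicotinic receptors and the 5-HT3 receptor are ion channels. Adenosine, made when neurons are active, dampens transmission through the A1 receptor.

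The promoters of Adora1 and Adora3 are shown as examples. These genes were picked after their values by FOS stain and by time were seen, and neither passed the main test of counts (edgeR) there. AP-1, the complex that contains FOS, has the consensus TGACTCA or TGAGTCA. The search used the wider form TGANTCA, with any base as N, so its counts include matches outside that consensus. Both strands were searched in the 300 bases from 250 before to 50 after each RefSeq gene start (GRCm38.p6). TGANTCA was found in 2425 of 27025 genes (8.97%) and in 7 of the 45 members with a promoter sequence (15.6%). These were Adora1, Adora3, Adra1b, Chrna1, Hrh1, Htr2b and Htr2c. TGACGTCA, the cAMP response element, was in 549 genes (2.03%) and in 0 of the 45. The Adora1 sequence is chr1:134235408-134235707 on the minus strand and the Adora3 sequence chr3:105904171-105904470 on the plus strand. Capitals mark the TGANTCA match, which began 104 bases before the RefSeq start of Adora1 and 98 bases before that of Adora3. The match reads TGAATCA in Adora1, outside the AP-1 consensus, and TGACTCA in Adora3. The annotation used for overlaps places Adora3 at chr3:105870858-105908926, a locus it shares with Tmigd3. The Adora3 sequence lies inside that span, so it may not be the promoter of the transcripts counted. A match describes the letters and does not show that a factor binds there.
Adora1: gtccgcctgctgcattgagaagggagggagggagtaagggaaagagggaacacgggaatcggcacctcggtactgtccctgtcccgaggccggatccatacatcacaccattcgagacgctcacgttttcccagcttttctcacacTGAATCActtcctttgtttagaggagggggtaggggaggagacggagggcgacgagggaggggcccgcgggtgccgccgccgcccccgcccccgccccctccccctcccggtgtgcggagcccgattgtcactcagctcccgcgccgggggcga
Adora3: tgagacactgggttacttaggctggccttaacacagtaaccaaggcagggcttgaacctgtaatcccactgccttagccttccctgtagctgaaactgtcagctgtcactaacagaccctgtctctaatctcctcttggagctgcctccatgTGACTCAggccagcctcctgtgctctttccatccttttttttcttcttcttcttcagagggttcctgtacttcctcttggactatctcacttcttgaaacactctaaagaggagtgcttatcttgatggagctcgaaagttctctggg

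A level below is the mean log2(TPM+1) over the nuclei of a mouse, given as mean ± SD over mice with at least 2 nuclei. TPM corrects for transcript length, so levels may be compared between genes. A share is the percentage of nuclei above a log2(TPM+1) of 1. By cell type, members were described in the FOS− nuclei of HC and 1 h mice: 52 DG, 40 CA1, 13 CA3, 22 subiculum (Sub), 39 VIP interneuron, 10 Ivy interneuron, 4 Pvalb and 6 Th nuclei, named as the submitters label them. Median counts were higher in DG (1217255), CA1 (1156958.5) and CA3 (1215446) than in Sub (805915.5), VIP (544320) and Ivy nuclei (468259). Prox1 was above threshold in 88.5% of DG nuclei and Vip in 84.6% of VIP nuclei. The thalamic marker Slc17a6 was in 83.3% of Th nuclei, Th standing for thalamus. Markers were also read outside their type: Vip in 70% of Ivy nuclei and Gad1 in 44.2% of DG nuclei. Reads of the microglial gene Cx3cr1 put 43.6% to 70.0% of nuclei of the 6 larger types above threshold, at mean levels of 0.67 to 1.46, while Csf1r, also microglial, was there in 0 to 10%. The part of such low reads in the receptor values was not tested. A low level in a nucleus may therefore not mark a cell that uses the receptor.

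Detection of the receptor genes is given beside that of all genes. In DG 10 of 57 members (17.5%) were above threshold in at least 20% of nuclei, against 24.6% of all genes. The count was 17 in CA1 (29.8%, against 28.1% of all genes) and in CA3 (29.8%, against 30.5%), 20 in Sub (35.1%, against 27.3%), 21 in VIP (36.8%, against 25.7% of all genes) and 25 in Ivy nuclei (43.9%, against 30.6%). At this cut of 20%, the share of receptors was below that of all genes in DG and near it in CA1 and CA3. It was above it in Sub, VIP and Ivy nuclei, whose libraries were shallower. The median share of nuclei per gene was higher for members than for all genes in each of these types. In DG it was 3.85% against 1.92%, and in CA1 10% against 2.5%. These shares were not tested. Adora2a and Chrna6 were above threshold in no nucleus of a type with 8 or more nuclei. The 32 members that reached 20% of nuclei in such a type, over all its used nuclei, are described by name.

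**Figure D1:**
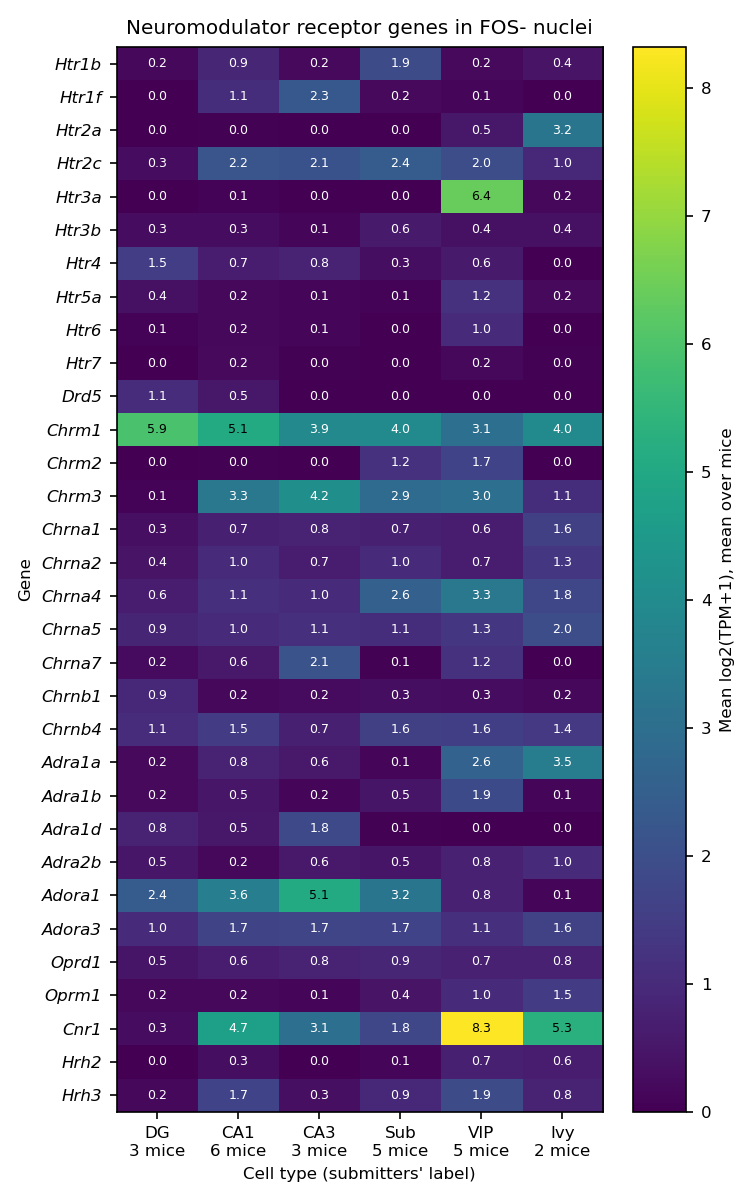
Mean log2(TPM+1) over mice of the 32 named members (rows, grouped by transmitter) in the FOS− nuclei of 6 cell types (columns, with the number of mice). The highest level was that of Cnr1 in VIP nuclei (8.32), and Chrm1 was the member with a level above 3 in all 6 types.

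Among serotonin receptors, Htr3a, the ion channel subunit, had its highest level in VIP interneurons. Its level per VIP mouse was 7.33, 6.51 and 3.91 at 1 h and 6.09 and 8.18 in HC (mean 6.40 ± 1.61, n = 5), in 34 of 39 nuclei. It was 0 in every DG, CA3 and Sub mouse, at most 0.27 in a CA1 mouse, and 0.37 and 0 in the 2 Ivy mice. The VIP mice did not overlap those of any other type. Htr3a is a gene the study used to classify nuclei, so this contrast is a description. Htr3b, its partner subunit, had low levels everywhere (0.12 in CA3 to 0.59 in Sub), and its types overlapped.

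Htr2c, the Gq-coupled 5-HT2C receptor, was read in Sub (2.41 ± 1.38, n = 5), CA1 (2.18 ± 1.79, n = 6), CA3 (2.09 ± 0.56, n = 3) and VIP nuclei (1.95 ± 2.10, n = 5). Its DG level was 0.27 ± 0.12 (n = 3). The 3 DG mice (0.19 to 0.42) lay below all CA3 mice (1.77 to 2.73), but overlapped the CA1 mice (0.35 to 5.34). Htr1f, a Gi-coupled receptor, was at 2.29 ± 1.82 in CA3 and 1.10 ± 1.04 in CA1, at 0.20 in Sub and 0.14 in VIP nuclei, and at 0 in each DG mouse. Htr4, coupled to Gs, was one of the few with its highest mean in DG (1.52 ± 0.75, mice at 1.05, 1.12 and 2.39), although the mice of CA3 and CA1 overlapped those of DG.

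The other serotonin receptors were low or rested on few mice. Htr1b, the presynaptic autoreceptor type, was highest in Sub (1.89 ± 1.40, 0.54 to 4.05). Htr5a (1.19 ± 1.34) and the Gs-coupled Htr6 (1.04 ± 1.36) were highest in VIP nuclei, where single mice reached 3.53 and 3.33. Htr2a, the Gq-coupled 5-HT2A receptor, was at 6.49 in 1 Ivy mouse and 0 in the other, and Htr7 stayed at or below 0.20 in the mean of each type.

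Of the dopamine receptors, Drd5, the Gs-coupled D5 receptor, was read in DG (0.14, 0.87 and 2.17 by mouse, mean 1.06 ± 1.03) and CA1 (0.53 ± 0.74, 0 to 1.91, median 0.27). It was 0 in all mice of CA3, Sub, VIP and Ivy. The limit set by 0 of 39 VIP nuclei is 7.69% of nuclei. Such limits, here and below, cover counting error over nuclei only and not the spread between mice. DG and CA1 mice overlapped.

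The muscarinic receptor gene Chrm1, whose product couples to Gq, was the most widely detected member. Its level per mouse was 6.68, 4.97 and 6.12 in DG (5.92 ± 0.87, n = 3), in 49 of 52 nuclei. In CA1 the lowest, median and highest of 6 mice were 3.88, 5.25 and 5.61, and in VIP the 5 mice were at 3.69, 2.65, 2.99, 2.23 and 3.72 (3.06 ± 0.65). Each DG mouse was above each VIP mouse, whereas DG and CA1 mice overlapped. In CA3, Sub and Ivy nuclei the means were 3.91, 3.99 and 4.00. After each nucleus was thinned to 100000 counts, Chrm1 was still read in 91.4% of DG and 71.3% of VIP nuclei.

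Chrm3, also Gq-coupled, was nearly absent from DG. Its DG level was 0.07, 0 and 0.16 by mouse, with 4 of 52 nuclei above threshold. Means were 4.16 ± 1.31 in CA3 (2.65 to 5.01), 3.34 ± 1.61 in CA1 (1.49 to 5.63), 2.93 ± 1.59 in Sub (0.63 to 4.61) and 3.04 ± 1.88 in VIP nuclei (0 to 5.03). The DG mice lay below all mice of CA1, CA3 and Sub, and 1 VIP mouse at 0 overlapped them. Chrm2, coupled to Gi, was in Sub (1.18 ± 1.30) and VIP nuclei (1.67 ± 3.48), the latter through 1 mouse at 7.89 that gave 2 nuclei. It was 0 in DG, CA3 and Ivy.

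Nicotinic subunit genes differed in their order of types. Chrna4, the subunit of the main high-affinity brain receptor, was highest in VIP (3.32 ± 2.16, 0 to 5.67) and Sub nuclei (2.55 ± 1.47, 0 to 3.67) and lower in DG (0.63 ± 0.70), with overlapping mice. Chrna7, which forms the alpha-7 channel, was in VIP nuclei (1.19 ± 0.74), and its mean of 2.13 in CA3 came from 1 mouse at 6.38. Chrna1, Chrna2, Chrna5 and Chrnb4 were read in all 6 types, with means of 0.33 to 1.57, 0.44 to 1.31, 0.86 to 1.97 and 0.73 to 1.59. Chrnb1, the muscle-type subunit, averaged 0.93 ± 1.04 in DG, where 1 mouse was at 2.12.

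Adrenergic genes are described by subtype. Adra1a and Adra1b are both Gq-coupled. Adra1a was at 3.48 ± 1.51 in Ivy and 2.61 ± 2.74 in VIP nuclei (0.23 to 7.20), and Adra1b at 1.87 ± 1.74 in VIP nuclei but at 0.15 ± 0.21 in Ivy nuclei, its lowest mean. Adra1d, of the same subfamily, was read in CA3 (0.43, 2.13 and 2.97), DG (1.99, 0.46 and 0) and CA1 (0.54 ± 1.00) but was 0 in all VIP and Ivy mice with at least 2 nuclei. Adra2b was low in all types (0.19 in CA1 to 1.00 in Ivy). Mice of neighbouring types overlapped for all 4 genes.

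Adora1, the Gi-coupled adenosine A1 receptor gene, followed the glutamatergic types. Its level was 5.66, 6.43 and 3.14 by CA3 mouse (5.08 ± 1.72), 2.32, 3.30 and 4.96 as lowest, median and highest of 6 CA1 mice (3.57 ± 1.14), 3.24 ± 1.22 in Sub (1.65 to 5.03) and 2.06, 1.71 and 3.52 in DG (2.43 ± 0.96). VIP mice were at 0, 0.57, 0.92, 0.77 and 1.59 (0.77 ± 0.58), and Ivy mice at 0.28 and 0. All mice of the 4 glutamatergic types were above all VIP and Ivy mice with at least 2 nuclei. Adora3, the A3 receptor gene, shares its strand and locus with Tmigd3, so reads of these genes may be mixed. Its level went from 1.01 ± 0.21 in DG (0.83 to 1.24) to 1.74 ± 0.31 in CA3 (1.38 to 1.93), where every mouse was above every DG mouse, while neighbouring types overlapped.

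Cnr1, the cannabinoid CB1 receptor gene, had the highest level of all members. VIP mice were at 7.85, 8.61, 7.98, 8.16 and 9.01 (8.32 ± 0.48), in 38 of 39 nuclei, above the mice of every other type. Ivy mice were at 4.25 and 6.34, CA1 mice at 3.06 to 6.05 (4.71 ± 1.29), CA3 at 3.06 ± 1.48, Sub at 1.79 ± 1.17, and DG mice at 0.74, 0.13 and 0. Cnr1 was also used by the study to classify nuclei, so its place among types is a description.

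Opioid and histamine receptor genes were low. Oprm1, the mu receptor gene, was at 0 and 2.95 in the 2 Ivy mice and 1.02 ± 1.71 in VIP nuclei, where 1 mouse reached 4.02. Oprd1, the delta receptor gene, ranged from 0.48 in DG to 0.88 in Sub. Hrh3, the Gi-coupled autoreceptor, was at 1.90 ± 0.62 in VIP (1.37 to 2.59) and 1.68 ± 1.78 in CA1, and 0.19 ± 0.20 in DG, where every mouse was below every VIP mouse. Hrh2, coupled to Gs, averaged 0.73 ± 0.56 in VIP and was 0 in DG and CA3.

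**Figure D2:**
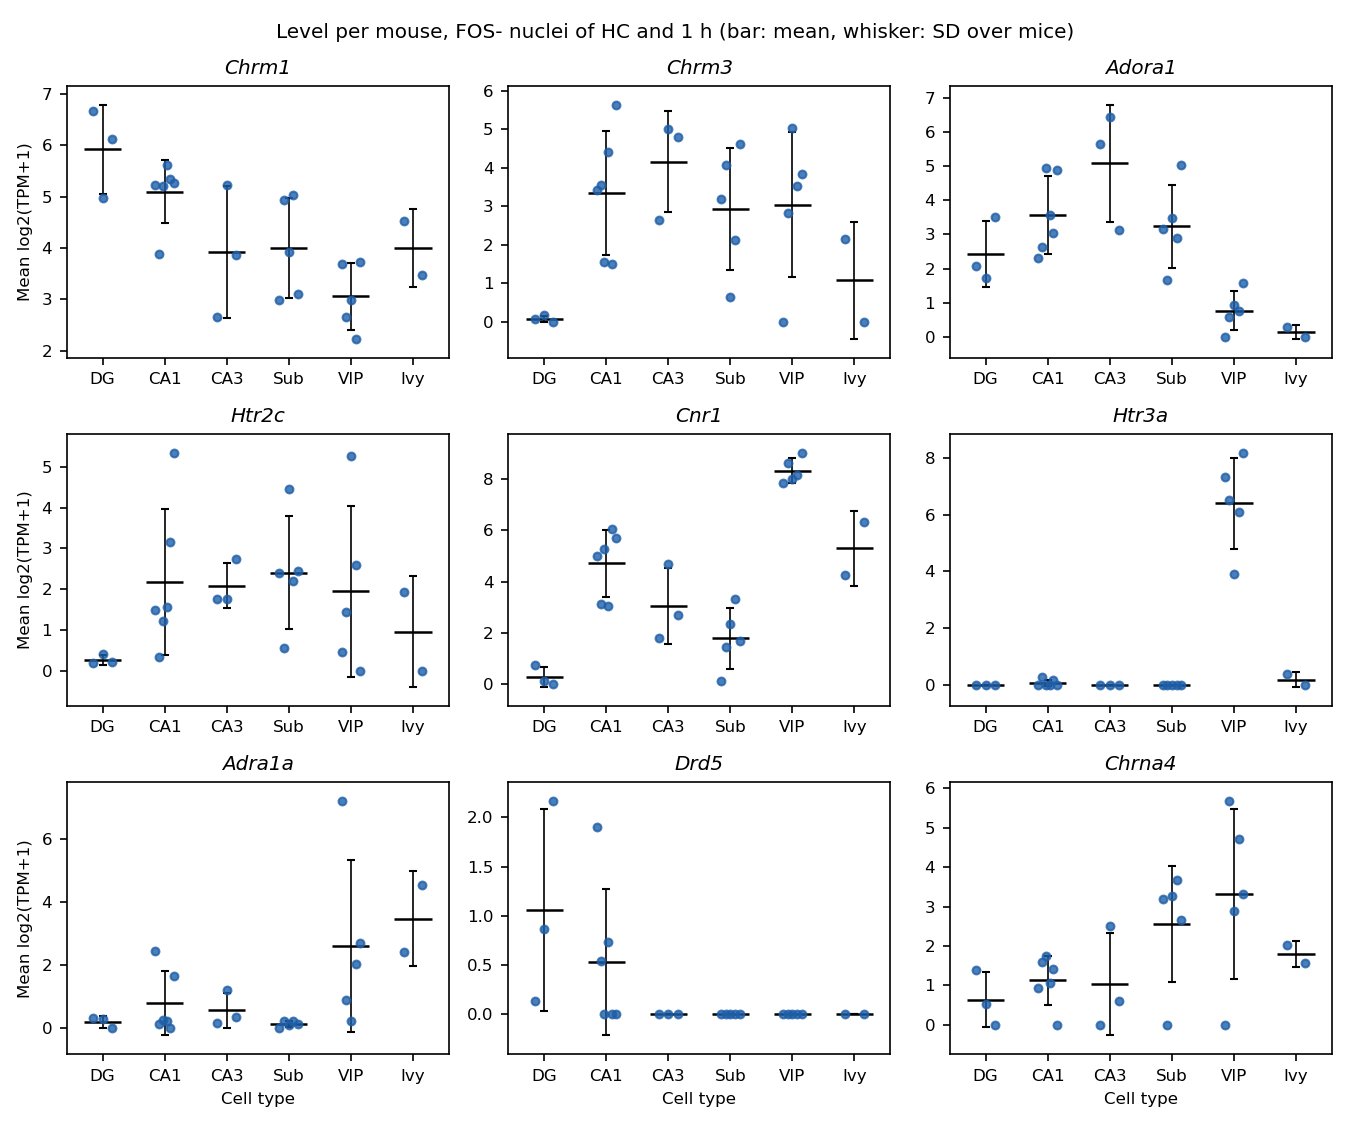
Mean log2(TPM+1) per mouse (points), with mean and SD over mice (bar and whisker), of 9 members in the FOS− nuclei of 6 cell types. Chrm3 and Cnr1 sit near 0 in DG, Chrm1 is high there, and Adora1 is lowest in VIP and Ivy nuclei.

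Counts summed per mouse and type were compared with edgeR's quasi-likelihood test, with Benjamini-Hochberg adjustment over all genes tested. Over 6 contrasts and 264 member tests there were 2 calls, both Htr3a, in VIP minus CA1 (adjusted p = 0.000655) and in DG minus VIP (adjusted p = 0.00172), the contrasts in which the gene helped to set the labels. No other member passed. With the mouse as a replicate block 0 members were called over the 4 contrasts that could be fitted, and with CA1 nuclei of the PROX1-CTIP2+ gate alone 1 was, so the call in VIP minus CA1 was lost under both. The background was 0.162% of 18558 genes called in DG minus CA1, 0.517% in VIP minus CA1, 0.485% in DG minus VIP, 0% in CA3 minus CA1, 0.0108% in Sub minus CA1 and 0.00539% in Ivy minus VIP. At an unadjusted p under 0.05 stood 75 of the 264 member tests (28.4%), against 11.5% over all genes. DESeq2 called 47 of 222 member tests, against a background of 6.35% of its tests, and limma on the mean log2 values 8 of 258, against 0.803%.

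The sizes behind these counts were large for several receptors that edgeR did not call. Chrm1 was higher in DG than in VIP by 2.65 ± 0.66 (log2 fold change ± SE, edgeR adjusted p = 0.0859), and limma called it (2.87 ± 0.68, adjusted p = 0.0288). Adora1 was lower in VIP than in CA1 by a log2 fold change of -2.90 ± 1.10 (edgeR adjusted p = 0.211; limma -2.80 ± 0.67, adjusted p = 0.03). The other limma calls were Htr3a and Cnr1. DESeq2 also called, among others, Chrm3 and Htr2c lower in DG than in both CA1 and VIP, and Chrm3 had edgeR adjusted p-values of 0.264 and 0.132 in those contrasts. In DG minus CA1, 2 members were higher and 11 lower at an unadjusted p under 0.05, with a median log2 fold change over 44 members of -1.15, against -0.08 over all genes. In DG minus VIP the members' median was -2.35 (5 higher, 14 lower), against 0 over all genes, and in VIP minus CA1 it was 0.70 (12 higher, 8 lower), against -0.07. The filter on low counts keeps a gene that is high in a single type. These counts and medians therefore depend on which types the kept members are high in, a part that was not tested. These contrasts also share the DG, CA1 and VIP sums.

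The share of nuclei with a count after thinning to 100000 counts differs from the main share in both depth and criterion, since it takes any count. Chrna5 was read in 10.1% in place of 49.1% of CA1 nuclei, and Adora3 in 32.2% in place of 75.0%. Cnr1 went from 98.7% to 100% in VIP nuclei and Adora1 from 62.6% to 60.0% in CA1. Some widely read genes had lower thinned shares, such as Chrm1 in Sub (90% and 74.3%) and Chrm3 in CA1 (80.4% and 66.7%).

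**Figure D3:**
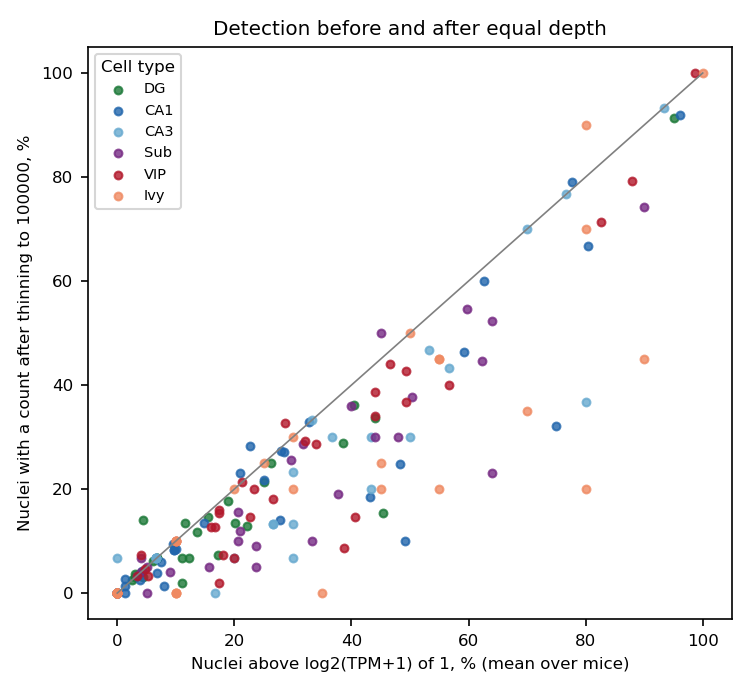
Share of nuclei above a log2(TPM+1) of 1 (x axis, %, mean over mice) against the share with a count after each nucleus was thinned to 100000 counts (y axis, %) for the 32 named members in 6 cell types, 1 point per gene and type, with the line of equal shares. Most points lie on or under the line, among them Adora3 in CA1 (75.0% and 32.2%), and some lie above it, such as Adra1a in CA1 (22.7% and 28.2%).

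The next comparison asked which receptor genes differ between FOS+ and FOS− nuclei 1 h after the NE. DG nuclei of this time came from 1 mouse, CA1 nuclei from 3 and VIP nuclei from 2 mice that gave both kinds of nuclei. Adora1 was higher in FOS+ nuclei of each DG and CA1 mouse and lower in each VIP mouse. The DG mouse had 4.64 in its FOS+ and 2.06 in its FOS− nuclei, above threshold in 20 of 26 and 9 of 27 nuclei. CA1 mice had 2.32, 2.62 and 4.96 in FOS− and 3.42, 3.77 and 7.52 in FOS+ nuclei, a mean difference of 1.61 ± 0.83 (SD over 3 mice). These 2 VIP mice had 0.57 and 0.92 in FOS− and 0.02 and 0.04 in FOS+ nuclei. Of 27 FOS+ nuclei 0 were above threshold, which allows a share of up to 11.1%. Mouse 2 of the 1 h exposure gave 2 VIP nuclei, both FOS−, with a level of 0. The FOS− and FOS+ mice of VIP nuclei therefore overlapped, and the tests below include mouse 2.

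These directions did not pass a test. The edgeR log2 fold change of Adora1 was 2.33 ± 2.23 in DG, 0.86 ± 0.81 in CA1 and -4.01 ± 2.12 in VIP nuclei, with adjusted p-values of 1, 1 and 0.885. The difference between cell types in this FOS difference was tested as an interaction: it was 6.39 ± 2.61 for DG against VIP (p = 0.0275, adjusted p = 1) and 4.86 ± 1.89 for CA1 against VIP (p = 0.0217, adjusted p = 0.814). Adora1 is in a list of early genes that the study chose on these nuclei, so its direction in DG is not independent evidence.

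Values of other members are given by mouse, and none passed edgeR. Adora3 was at 2.57 in FOS+ and 1.24 in FOS− nuclei of the DG mouse (25 of 26 and 14 of 27 nuclei), but was higher in FOS+ nuclei of only 2 of 3 CA1 and 1 of 2 VIP mice. Adra1d was higher in FOS+ nuclei in 3 of 3 CA1 mice (mean difference 1.00 ± 0.32) and lower in the DG mouse (0.53 against 1.99). Chrm1 was higher in both VIP mice (by 0.92 and 1.10) and lower in the DG mouse (4.78 against 6.68). Htr3a went from 6.51 to 9.43 and from 3.91 to 7.63 in the 2 VIP mice with both kinds of nuclei. The unpaired edgeR fit of summed counts also holds the FOS− nuclei of mouse 2. It gave a log2 fold change of 1.59 ± 0.59 (edgeR p = 0.0324, adjusted p = 0.852).

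**Figure D4:**
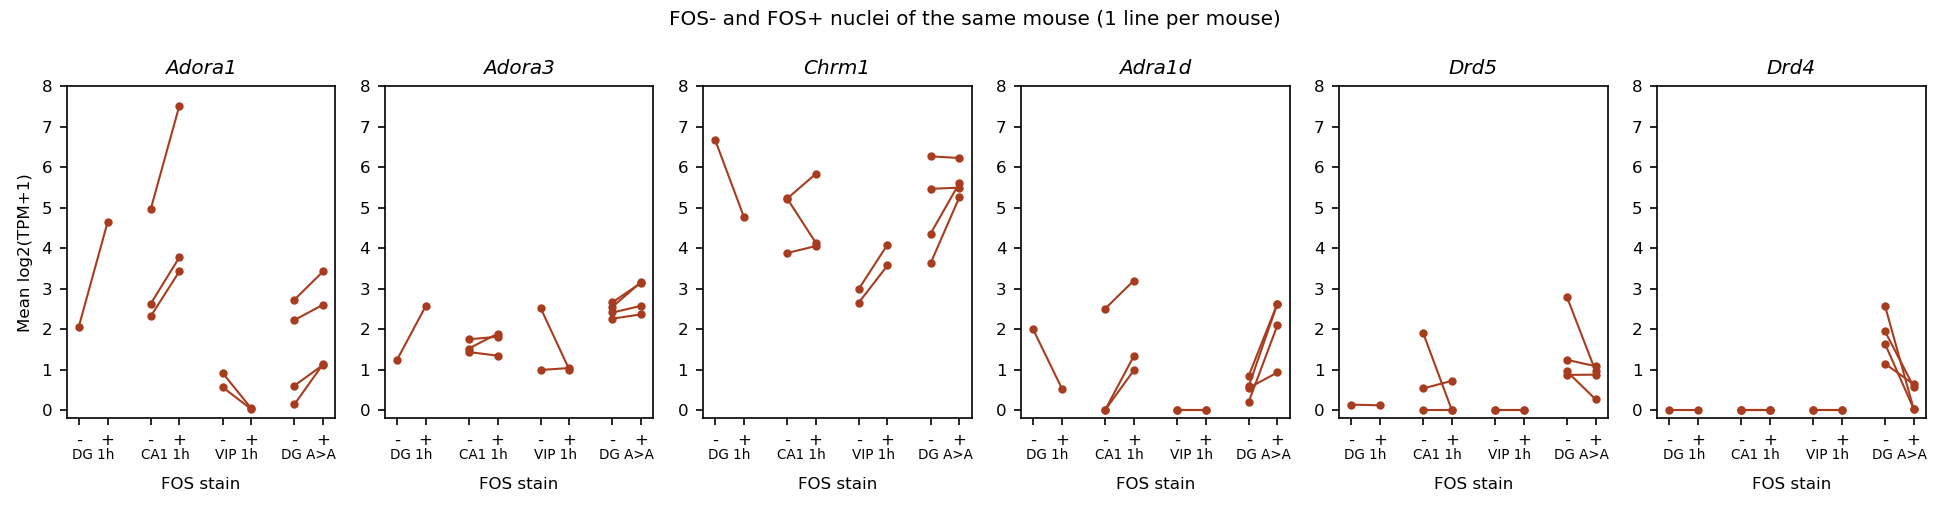
Mean log2(TPM+1) in FOS− and FOS+ nuclei of the same mouse (y axis, 1 line per mouse) for 6 members, at 1 h in DG, CA1 and VIP nuclei and after A>A re-exposure in DG nuclei. Adora1 is higher on the FOS+ side in the DG and CA1 mice and lower in the VIP mice, and Drd4 is lower on the FOS+ side in all 4 A>A mice.

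By edgeR 0 of 112 member tests of FOS+ against FOS− at 1 h were called, with 6 at an unadjusted p under 0.05 (5.36%, against 4.11% of all genes). The background was 0.0451% in DG, 0% in CA1 and 0% in VIP nuclei. DESeq2 called 3 of 79 (Adora3, Drd1 and Htr6 in DG), against 3.99%, and limma 0 of 115, against 0.188%. Of the 147 interaction tests edgeR called 0, with 8 at an unadjusted p under 0.05 (5.44%, against 3.42% of all genes). The background there was 0.00457% for DG against CA1, 0.00457% for DG against VIP and 0% for CA1 against VIP, and DESeq2 called 1 of 96 (Htr5a; background 2.89%) and limma 0 of 135 (background 0.0274%).

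Later groups were compared with HC. HC nuclei all belong to the first cohort and the ARC+ nuclei to the second, so time after the NE and cohort cannot be told apart, and the contrasts below share the same HC mice. Adora3 had its lowest DG level in HC, at 0.96 and 0.83 by mouse (0.89 ± 0.09), in 10 of 25 nuclei. At 1 h the DG mouse gave 1.24 (FOS−) and 2.57 (FOS+), followed by 2.15 ± 0.48 over 2 mice at 4 h, and 2.00, 2.17, 1.67 and 2.35 at 5 h. All mice of the later groups were above both HC mice. The thinned share was 15.6% in HC, 46.2% in FOS+ nuclei at 1 h and 50.2% at 5 h. Median counts per nucleus were 979780 in HC, 2469299 at 4 h and 426841 at 5 h. The edgeR log2 fold change over HC was 2.61 ± 0.92 at 1 h in FOS+ nuclei (adjusted p = 0.524), 2.14 ± 0.81 at 4 h (adjusted p = 0.708) and 2.38 ± 0.76 at 5 h (adjusted p = 0.281), and limma called the 5 h difference (1.15 ± 0.37 on the mean log2 scale, adjusted p = 0.0473). DESeq2 called all 3.

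Adora1 was at lower values at 4 h and 5 h than in FOS+ nuclei at 1 h. It was 1.71 and 3.52 in the HC mice, 4.64 in FOS+ nuclei at 1 h, 2.38 and 1.56 at 4 h, and 1.97, 1.86, 0.52 and 2.21 at 5 h. The later mice overlapped those of HC. Chrm1 was at 4.97 and 6.12 in HC, 6.28 and 7.10 at 4 h, and 2.65, 2.84, 6.17 and 5.86 at 5 h, where mice lay in a lower and a higher pair. The 5 h mice also differed in depth. Mice 22 and 23 held 15395544 counts over 10 nuclei and 9952373 over 6, and mice 8 and 9 held 8968439 over 22 and 7091999 over 21. The part of depth in these values was not tested. Chrnb1 was at 0.21 and 2.12 in HC and at most 0.38 in the 4 h and 5 h mice. limma called it lower at both times (-1.14, adjusted p = 0.0411, and -1.07, adjusted p = 0.0125), but the HC mean rested on 1 mouse with 5 nuclei. Htr4 was present throughout, with means of 1.72 in HC, 2.38 at 4 h and 1.35 at 5 h.

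**Figure D5:**
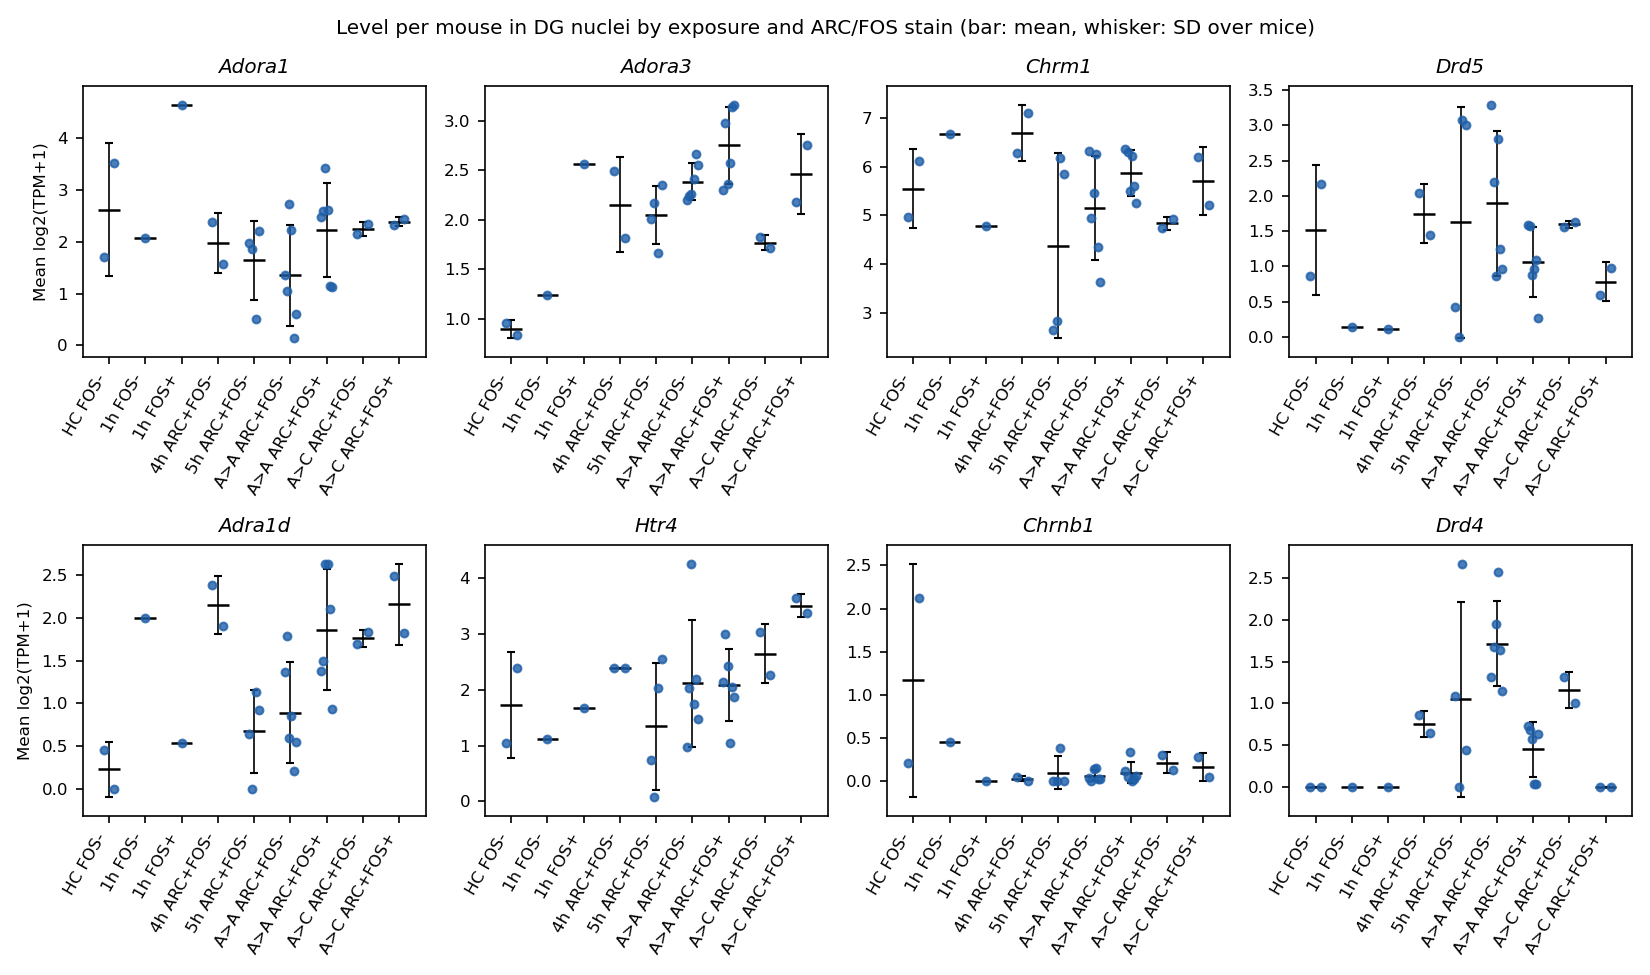
Mean log2(TPM+1) per mouse (points) with mean and SD over mice (bar and whisker) of 8 members in 9 groups of DG nuclei by exposure and stain, groups of 1 mouse without whisker. Adora3 is lowest in the 2 HC mice (0.83 and 0.96). Drd4 is 0 in the HC and 1 h groups, all of the first cohort. It is lower in FOS+ than in FOS− nuclei after re-exposure.

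Against HC, edgeR called 0 of 224 member tests at 1 h, with 13 at an unadjusted p under 0.05 (5.80%, against 4.32% of all genes). The background was 0.27% in DG FOS+, 0.0041% in DG FOS−, and 0% in CA1 FOS+, CA1 FOS−, VIP FOS+ and VIP FOS− nuclei. DESeq2 called 12 of 165, against 3.9%, among them Adora1 in VIP FOS+ nuclei, and limma 0 of 230, against 0.534%. At 4 h and 5 h edgeR called 0 of 98, with 10 at an unadjusted p under 0.05 (10.2%, against 7.93%), beside a background of 0.246% at 4 h and 0.262% at 5 h. DESeq2 called 9 of 70 (background 8.39%) and limma 4 of 68 (background 6.92%), namely Chrnb1 at both times and Adora3 and Htr1a at 5 h. Htr1a, the Gi-coupled 5-HT1A receptor gene, is outside the naming rule and was picked after its values were seen: it was at 0.41 and 0.97 in HC and at 0, 0, 0.13 and 0 at 5 h.

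The last comparison was between ARC+FOS+ and ARC+FOS− nuclei after re-exposure, nuclei that did or did not respond to the second environment. The study describes ARC+FOS+ nuclei as a mix of those activated only by the second exposure and those activated by both. The stain does not separate them, whereas ARC+FOS− nuclei had responded to the first exposure. Response to the second exposure and history of the first therefore cannot be told apart in this comparison. In A>A there were 6 mice on each side, 4 of them shared, and in A>C different mice, sorted on different dates, gave the FOS+ and the FOS− nuclei. A>A mice 15 and 16 gave FOS+ nuclei only, with 17148939 counts over 22 nuclei and 18851491 over 24. Mice 19 and 20 gave FOS− nuclei only, with 35604488 counts over 16 nuclei and 60481935 over 24. In these unshared mice stain and depth cannot be told apart. Drd1, Drd4 and Drd5 had higher means on the FOS− side. Drd4, the Gi-coupled D4 receptor gene, was picked after its values were seen. In A>A FOS− nuclei it was at 1.31, 1.67, 1.95, 2.58, 1.64 and 1.15 by mouse (1.72 ± 0.51), and in FOS+ nuclei at 0.73, 0.69, 0.58, 0.03, 0.03 and 0.64 (0.45 ± 0.33). The mice did not overlap, and Drd4 was lower in FOS+ nuclei in 4 of 4 shared mice.

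Drd4 was above threshold in 34 of 129 FOS− and 8 of 130 FOS+ nuclei of A>A. In A>C it was at 1.32 and 1.01 in FOS− nuclei (11 of 46) and 0 in FOS+ nuclei (0 of 48, which allows up to 6.25%). It was 0.87 and 0.65 at 4 h and 1.08, 0, 2.68 and 0.44 at 5 h, all ARC+FOS− groups. No count was read in HC DG (0 of 25 nuclei above threshold, allowing up to 12%), in either 1 h DG group, or in CA1 and VIP nuclei of the first cohort. The DG groups in which Drd4 was read all belong to the second cohort, sorted on ARC and without NEUN. Cohort, sorting and exposure therefore cannot be told apart in this difference. Median counts in A>A were 1667494.5 in FOS+ and 2133171 in FOS− nuclei, and after thinning the shares were 5.23% and 21.1%.

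The tests of Drd4 in A>A disagreed. limma called it (-1.27 ± 0.32, adjusted p = 0.0397), whereas edgeR gave a log2 fold change of -1.78 ± 1.33 (adjusted p = 0.627) and DESeq2 an adjusted p of 0.616. In A>C, DESeq2 called Drd4 and edgeR did not. Drd1, the Gs-coupled D1 receptor gene, also picked after its values were seen, was measured in counts only. It was at 55.2, 97.8, 59.5, 75.4, 54.1 and 17.5 CPM (counts scaled to the library total) in A>A FOS− nuclei and at 0, 52.4, 15.8, 0.019, 0 and 11.3 in FOS+ nuclei. These groups overlapped, 4 of 4 shared mice were lower in FOS+ nuclei, and edgeR gave -2.35 ± 1.65 (adjusted p = 0.586). Drd5 was at 1.89 ± 1.02 in FOS− and 1.06 ± 0.49 in FOS+ nuclei of A>A, lower in 3 of 4 shared mice, with overlapping groups.

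Adra1d, Adora1 and Adora3 had higher means on the FOS+ side of A>A. Adra1d was at 0.21 to 1.79 in FOS− nuclei of the 6 A>A mice (0.89 ± 0.59) and at 0.93 to 2.63 in FOS+ nuclei (1.86 ± 0.70). It was higher in 4 of 4 shared mice (mean difference 1.53 ± 0.77), but the 2 groups overlapped. Adora1 averaged 1.42 in FOS− and 2.07 in FOS+ nuclei of the shared mice, higher in 4 of 4 (difference 0.65 ± 0.27), and was at 2.25 ± 0.14 in FOS− and 2.38 ± 0.08 in FOS+ nuclei of A>C. Adora3 was higher in 4 of 4 shared mice by 0.34 ± 0.25. The edgeR log2 fold change over all A>A mice was 0.13 ± 0.87 for Adora1 and 0.27 ± 0.45 for Adora3, within their errors. Hrh3 averaged 0.47 in FOS+ and 0.05 in FOS− nuclei (edgeR p = 0.00767, adjusted p = 0.261), and DESeq2 called it (adjusted p = 0.00962).

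After re-exposure edgeR called 0 of 98 member tests, with 14 at an unadjusted p under 0.05 (14.3%, against 9.94% of all genes), beside a background of 0.041% in A>A and 0% in A>C. DESeq2 called 7 of 70 (background 5.26%) and limma 1 of 68, Drd4 in A>A (background 1.07%). In A>A 7 members were higher and 5 lower at an unadjusted p under 0.05, and the median over 49 members was 0, against -0.02 over all genes.

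The genes that make, move or degrade the transmitters, and those that relay the receptor signal, were counted in the same fits. Of 31 ligand supply genes 3 of 512 tests over all 22 contrasts passed by edgeR, all higher. In VIP minus CA1 it was 1 of 23 tested, against 0.517% of all genes: Pnoc, the nociceptin precursor (adjusted p = 0.021). In DG minus VIP it was 2 of 23, against 0.485% of all genes. These were Pdyn, the dynorphin precursor (adjusted p = 0.0499), and Napepld, an enzyme of lipid signalling (5.92 ± 1.30, adjusted p = 0.0414). Pdyn was at 3.39 ± 2.38 in DG and 0 in VIP nuclei. Of 56 signalling genes, 5 tests of 1187 over all 22 contrasts were called higher and 1 lower. In VIP minus CA1 it was 1 of 55 tested, against 0.517% of all genes. Over HC it was 2 of 56 at 4 h, against 0.246%, and 1 of 56 at 5 h, against 0.262%. The remaining calls were in DG FOS+ nuclei at 1 h. These shares were not tested against those of all genes. In DG FOS+ nuclei at 1 h, which came from 1 mouse whose spread was taken from other DG groups, Pde4a, a phosphodiesterase that breaks down cAMP, was higher than in HC by a log2 fold change of 4.12 ± 0.66 (edgeR adjusted p = 0.00566), and Rgs7, a regulator that shortens G-protein signals, was lower (-3.64 ± 0.76, adjusted p = 0.042). Rgs7 was higher than in HC at 4 h (3.18 ± 0.55, adjusted p = 0.0104) and at 5 h (2.99 ± 0.51, adjusted p = 0.0128), and Rgs4, of the same family, at 4 h (3.45 ± 0.69, adjusted p = 0.0352). Rgs12 was at 4.50 ± 2.56 in VIP and 0.03 ± 0.07 in CA1 nuclei (adjusted p = 0.0389). The median log2 fold change of the signalling genes was 0.61 at 4 h (all genes 0.23) and 0.22 at 5 h (all genes 0) over HC, and -0.31 in A>A (all genes -0.02).

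Of the 26 members outside the naming rule, Drd1 had no log2 value and so no share of nuclei. The others stayed under 20% of all used nuclei in each type with 8 or more nuclei. Single groups could lie higher, as Drd4 did in A>A FOS− nuclei. Over the FOS− nuclei of HC and 1 h mice in types with 8 or more such nuclei, the highest share of nuclei was 22.7%, that of Chrnb2 in Sub, where 22 nuclei were measured. Apart from Drd1, Drd4 and Htr1a described above, they included Adora2a, Adora2b, Adra2a, Adra2c, Adrb1, Adrb3, Chrm4, Chrm5, Chrna3, Chrna6, Chrna9, Chrna10, Chrna1os, Chrnb2, Chrnb3, Drd2, Drd3, Hrh1, Htr1d, Htr2b, Htr5b and Oprk1. In all, 54 members passed the filter on low counts in at least 1 comparison and Adora2a, Chrna3, Chrna6 and Htr1d in none. The filter keeps a gene that is high in 1 group, so the counts above do not describe all 58 members. Of the 58, 22 overlap another annotated gene, and the libraries do not mark the strand, so where the genes overlap, reads of Adora1, Adra1d, Chrm1, Chrm2, Chrm3, Chrnb4, Drd5, Hrh2, Hrh3, Htr1b, Htr3a and Oprm1 cannot be told from those of a gene on the opposite strand (Mybph for Adora1).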

How the data were processed

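Single-nucleus SmartSeq2 libraries were compared. The authors aligned reads with RSEM and Bowtie to mm10 (versions not given in the sources used here) and deposited, per nucleus, RSEM expected counts, all of them whole numbers, and log2(TPM+1) values that they computed from RSEM's TPM. The count tables list 42802 genes, of which 30 with missing values were left out, and there are 40221 in those of log2 values. No column was left without a sample. SmartSeq2 marks neither strand nor molecules, so reads include PCR copies and intervals and limits from 0 nuclei (3 counts of the total) cover counting error only.

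A nucleus was kept if it had 100000 aligned reads or more and if 4000 or more genes passed 1 on the log2(TPM+1) scale (818 of 912 nuclei), and 35 FOS− nuclei of HC and 1 h mice with Arc above 2.5 were left out. Groups were taken from the labels. A mouse is an exposure and a mouse number. Repeated numbers across dates were counted as 1 mouse, although 5 mice carry more than 1 age label, and splitting by date (33 mice) was an alternative. Counts were summed over at least 2 nuclei of a mouse and group and compared with edgeR 4.0.16 (TMM, filterByExpr, glmQLFit and glmQLFTest) in R 4.3.3, with Benjamini-Hochberg adjustment over all genes and a threshold of 0.05. Both 1 h DG groups hold 1 mouse, whose spread was taken from the other DG groups. DESeq2 1.42.0, limma 3.58.1 on mean log2 values (genes with a mean of at least 0.1) and a pseudocount of 0.1 in place of 1 were alternatives. Levels were computed in Python 3.11.15 (pandas 2.3.3, numpy 2.4.6, scipy 1.17.1), and thinning to 100000 counts used a fixed seed of 7. P-values measure the spread between sums of mice, and nothing but the mouse number says that these were separate animals.

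Sums of the same mouse came from several cell types and from FOS+ and FOS− nuclei. After removal of group means they correlated at 0.0249 on average between cell types (23 pairs), 0.0443 in CA1 (3 pairs), 0.012 in VIP (2 pairs) and 0.0499 in A>A (4 pairs). The pairing comes from the mouse numbers in the labels, and a fit with the mouse as replicate block was an alternative.

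Named members are those above threshold in at least 20% of nuclei of a type with 8 or more nuclei, or called by edgeR. The members and gene lists were chosen with earlier results of these data known. Promoters are RefSeq sequences of GRCm38.p6, and protein sequences were not used here. One item is not reported here.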

Additional observations from a re-analysis of the deposited data

Results flagged for a closer look

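In groups of 4 to 10 mice, the highest or lowest mouse was checked for a gap from the others by Dixon's criterion. Of 82 checks 9 stood out, and chance gives about 1 in 20. In VIP nuclei, Adra2b was at 1.42 in the fifth mouse of the 1 h exposure (the others at 0.504 to 0.716), Htr5a at 3.53 in that same mouse (others at 0.292 to 1.07), and Chrm2 at 7.89 in mouse 2 of the 1 h exposure, which gave 2 nuclei (others at 0 to 0.465). In CA1 nuclei, Chrm1 was at 3.88 in mouse 2 of the 1 h exposure (13 nuclei; others at 5.21 to 5.61), Hrh3 at 5.01 in mouse 4 of that exposure (others at 0 to 1.83), and Chrna2 at 2.53 in HC mouse 8 (3 nuclei; others at 0.537 to 0.901). In Sub nuclei, Chrna4 was at 0 in mouse 2 of the 1 h exposure (3 nuclei; others at 2.65 to 3.67). In DG nuclei, Htr4 was at 4.25 in A>A mouse 24 (FOS− nuclei; others at 0.97 to 2.19), and Oprd1 at 0.889 in 5 h mouse 23 (6 nuclei; others at 0.325 to 0.346). The mouse in question gave 5 nuclei for Adra2b, Htr5a and Hrh3 and 21 for Htr4. Their causes were not tested.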

How the results depend on the processing

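Between cell types the 2 edgeR calls became 47 with DESeq2, 8 with limma on mean log2 values, 4 with animals also split by date (adding Chrm1 in DG minus VIP and Htr3a in Ivy minus VIP), 4 with FOS+ nuclei added (adding Cnr1 in DG minus VIP and Htr3a in Ivy minus VIP) and 1 with CA1 from the PROX1-CTIP2+ gate alone. With at least 5 nuclei per sum the count was 3. Leaving out 1 mouse at a time gave 2 to 3, the third being Cnr1 in DG minus VIP without mouse 3 of the 1 h exposure. In the other families edgeR called 0, and DESeq2 called 3 for FOS+ minus FOS− at 1 h, 12 for 1 h minus HC, 9 for 4 h and 5 h minus HC, 7 after re-exposure and 1 for the interactions. limma called 4 for 4 h and 5 h minus HC and 1 after re-exposure. Each of these 5 families stayed at 0 to 0 when 1 mouse was left out. The cause of the differences between tools was not tested.

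With the mouse as replicate block the count between cell types was 0 over 4 contrasts, where DG minus CA1 and DG minus VIP could not be fitted, and 0 in the families of FOS+ minus FOS−, A>A and interactions. The pairing could not be fitted for the contrasts with HC and for A>C. The count of member and cell type detections was 31 and stayed between 29 and 39 with any count, thinned or pooled shares, no thresholds or a pseudocount of 0.1. Fold changes of named members and of Drd1, Drd4 and Htr1a were followed under the alternatives. Of these, 15027 kept their side of the threshold, 81 passed it and 2 fell behind it. Keeping a side includes being uncalled in both settings. A change of sign was counted only for the 2 tests called in the main fit, and there were none. Uncalled fold changes could change sign: Adora1 at 4 h minus HC went from -1.04 to 1.66 when 1 mouse was left out. Among levels and shares 35 moved by more than 1 SD. Of the levels 19 moved and 13 did not, and of the shares 16 moved and 112 did not.

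Some groups held few mice: 1 for DG at 1 h, 2 for HC DG and 2 for each A>C group. HC and ARC+ nuclei differ in cohort.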
